A study of Drosophila melanogaster with 17 samples.

Results

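The genes described here serve the endoplasmic reticulum (ER), the compartment in which secreted and membrane proteins are made and folded. A list of 10 symbols was looked up by FlyBase identifier in the deposited table of 17490 features, and 9 were found, namely Sec61alpha, Sec61beta, Sec61gamma, SsRbeta, Hsc70-3, Gp93, Calr, Xbp1 and crc. The remaining symbol, Pdi, was not analysed here. Features were taken by symbol, from a list drawn up with earlier results of these data known. The gene crc (cryptocephal) is not calreticulin, which is Calr, although the names have been written alike.

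Secreted proteins enter the ER through the Sec61 channel, whose alpha, beta and gamma subunits form a pore in the membrane, while SsRbeta belongs to the signal sequence receptor (TRAP) complex beside it. Inside, Hsc70-3, the fly BiP, Gp93, the fly GRP94, and Calr, a calcium-binding lectin chaperone, help new proteins to fold. When unfolded proteins build up, Ire1 splices the mRNA of the transcription factor Xbp1, and phosphorylation of eIF2alpha favours translation of crc, the fly ATF4. Splicing and translation are not seen in gene-level RNA values. In the fly midgut, enteroendocrine cells secrete peptide hormones, enterocytes secrete digestive enzymes, and the unfolded protein response has been tied to the division of intestinal stem cells.

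RNA was profiled in 17 libraries of GFP-positive cells sorted from Drosophila melanogaster midguts at 3 days of age, with about 10000 cells and amplified RNA per library. Wild type cells gave 5 progenitor libraries (titled ESG), 3 libraries of enteroendocrine cells (EE) and 3 libraries labelled EC, for which the title and cell type say enterocyte but the source name says enteroblast. A further 3 progenitor libraries were labelled as depleted of the transcription factor Sox100B by RNA interference (Sox100B-RNAi) and 3 as overexpressing it (Sox100B-OE). The labels give neither the drivers that marked the cells nor the constructs, and do not say whether replicates came from separate animals, so p-values measure a spread between libraries that may be technical. In bulk samples such as these, fewer cells of a type and less RNA per cell cannot be told apart.

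Values are RPKM, reads per kilobase of gene scaled to library size by the authors, and low values implied read totals of 17.4 to 59.5 M per library. The shallowest value of a listed gene, Gp93 in progenitor replicate 3, rested on about 807 reads, so that counting error was small against the spread between replicates. Reads in annotated genes made up 94.5 to 95.1% of the implied totals in the 6 Sox100B libraries but 62.4 to 77.2% in the 11 wild type libraries, where mitochondrial features were all listed at 0. That difference coincides with genotype, so in the comparisons of Sox100B-RNAi or Sox100B-OE with progenitors the listing and the genotype cannot be told apart. Sox100B itself was at 20.3 to 34.4 RPKM in Sox100B-RNAi against 69.7 to 183 in progenitors, but at 85.5 to 144 in the libraries labelled Sox100B-OE, within the progenitor range. The summed RPKM of 8 enteroendocrine markers was 79221 to 90137 in EE and at most 13514 in any other library. The sum of 10 enterocyte markers, most of them digestive enzymes, was 852 to 3487 in the libraries labelled EC, 519.7 to 1920.4 in EE and 118 to 541 in progenitors, and that of 4 progenitor markers was 242 to 360.4 in EC against 210.0 to 458 in progenitors. Of the enterocyte markers Myo31DF, a myosin, went the other way, at 13.6 to 38.6 RPKM in EC and 49.7 to 103 in progenitors. The markers of visceral muscle, hemocytes and fat body summed to at most 11.7, 7.14 and 5.09 RPKM.

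All 9 genes were among the more abundant transcripts in every group, with group means between the 89.4th percentile of all features, for Gp93 in the libraries labelled EC, and the 99.5th, for Calr in EE. Within a group their spread differed widely. The highest library exceeded the lowest 7.16-fold for Calr in EC, 5.80-fold for Hsc70-3 in progenitors and 4.92-fold for Gp93 in progenitors. It did so only 1.11-fold for Sec61gamma in EC and 1.12-fold for Sec61alpha in Sox100B-OE. SsRbeta had the most even level across groups, with its highest group mean 1.48 times its lowest, and crc the least even, at 5.83 times.

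**Figure D1:**
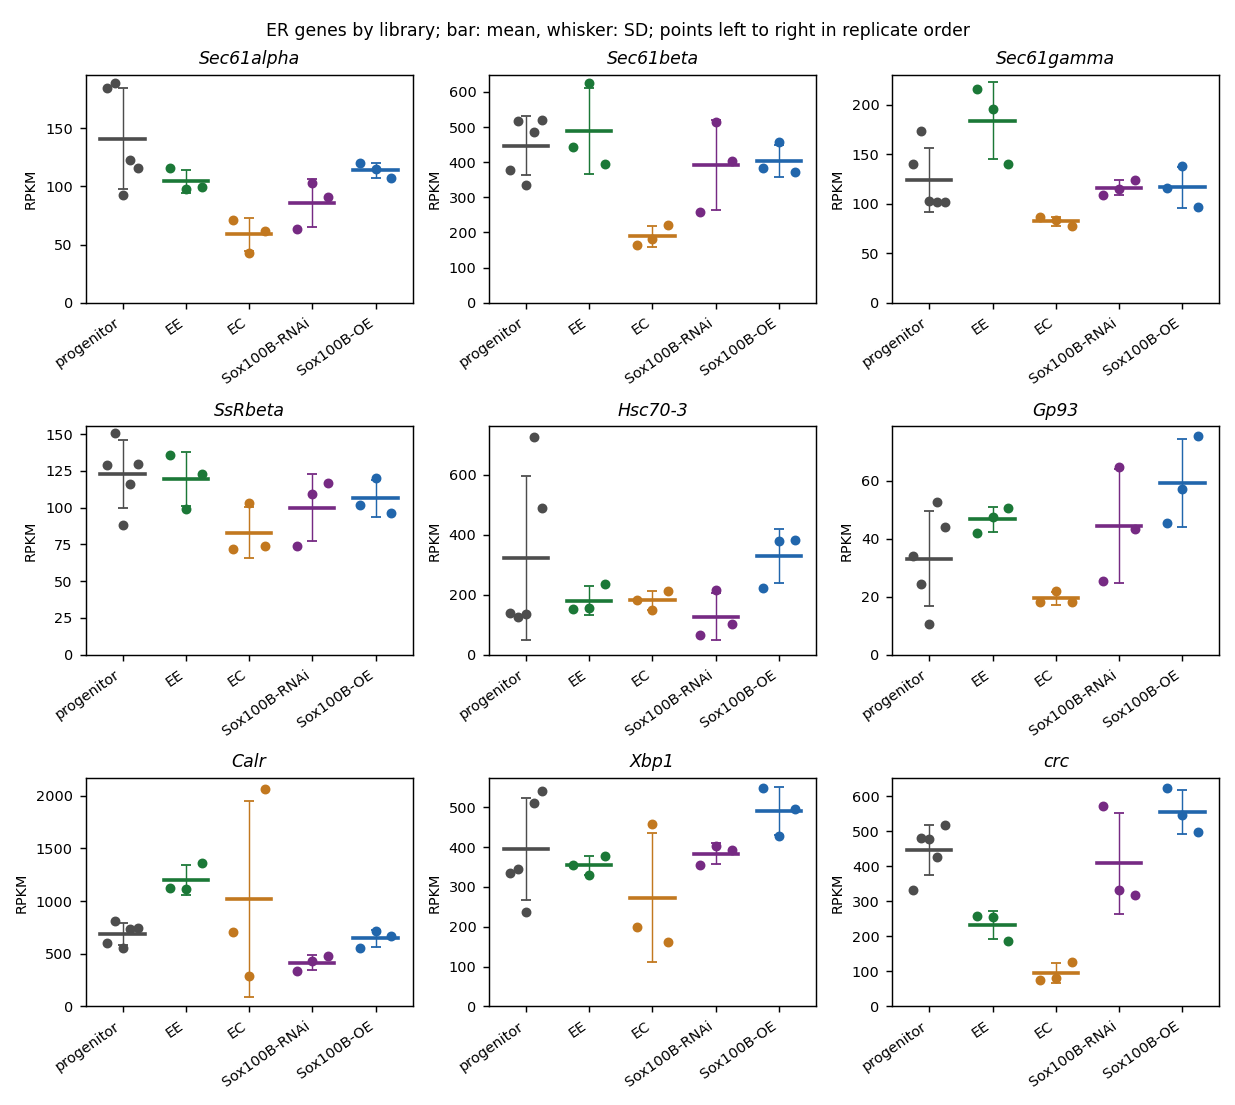
RPKM (linear axes from 0) of the 9 genes in each of the 17 libraries, with points in replicate order within the 5 groups, a bar at the group mean and whiskers for the SD. The libraries labelled EC are lowest for crc (76.4 to 128 RPKM), and progenitor replicates 4 and 5 stand above the other progenitors for Hsc70-3 (728 and 489 RPKM).

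Sec61alpha, the subunit that lines the channel (chromosome 2L, 6477182 to 6480575, BDGP6, sharing no exonic base with another gene), was at 185, 189, 93.1, 123 and 116 RPKM in the 5 progenitor libraries. It stood at 71.2, 42.9 and 62.0 RPKM in the libraries labelled EC and at 116, 98.1 and 99.9 in EE. Every EC library lay below every progenitor and EE library, whereas the EE values fell within the progenitor range. Sec61alpha fell in EC against progenitors by 1.23 ± 0.30 (SE) on the log2 scale, with an adjusted p of 0.00920 by limma. Against EC, EE was 0.85 ± 0.27 higher on that scale with an adjusted p of 0.0301, short of the threshold of 0.01 set for a call. The call against progenitors was kept under 7 of 20 alternative settings. It was lost without progenitor replicate 1, 2, 4 or 5 and without EC replicate 1, 2 or 3, with log2 fold changes of -1.38 to -1.02 and adjusted p of 0.0153 to 0.0456.

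Sec61beta, the small tail-anchored subunit (2R, 14618771 to 14619681, no shared exonic base), was the most abundant channel subunit in every library. Its RPKM was 379, 516, 336, 487 and 519 in progenitors, 163, 182 and 221 in EC, and 444, 626 and 394 in EE. All 3 EC libraries lay below all others of the wild type, and EE overlapped progenitors. The gene fell in EC against progenitors by 1.23 ± 0.24 on the log2 scale (adjusted p = 0.00355, limma) and was higher in EE than in EC by 1.35 ± 0.28 (adjusted p = 0.00438). The first call was lost without progenitor replicate 5, EC replicate 1 or EC replicate 2, where the log2 fold change was -1.17, -1.13 and -1.21. The second was lost without EC replicate 1 or any of the 3 EE replicates, with log2 fold changes of 1.16 to 1.49 and adjusted p of 0.0140 to 0.0359.

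Sec61gamma, the subunit that clamps the channel together (X, 19643327 to 19644518, no shared exonic base), was at 216, 196 and 140.2 RPKM in EE. It was at 86.2, 83.3 and 77.6 in EC and at 140.4, 174, 103, 102 and 102 in progenitors. EC lay below both other cell types in every library, and EE replicates 1 and 2 lay above every progenitor library, but EE replicate 3 did not. EE exceeded EC by 1.13 ± 0.26 on the log2 scale (adjusted p = 0.00742, limma). EE against progenitors gave 0.58 ± 0.23 (adjusted p = 0.0659) and EC against progenitors -0.55 ± 0.25 (adjusted p = 0.0929), so neither was called. The call between EE and EC was kept without EC replicate 3 and lost without each of the other 5 libraries, with log2 fold changes of 1.0 to 1.31 and adjusted p of 0.0126 to 0.0548.

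SsRbeta (3L, 16129617 to 16130983, no shared exonic base) was at 129, 151, 88.5, 116 and 129.6 RPKM in progenitors, 71.8, 103 and 74.2 in EC, and 136, 99.4 and 123 in EE. The 3 cell types overlapped in every pairing and no difference was called. Its log2 fold changes were -0.03 ± 0.20 for EE and -0.56 ± 0.25 for EC against progenitors, with adjusted p of 0.909 and 0.0879 by limma.

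The balance of subunit RNAs within a library does not change when all its values are multiplied by a single factor, but quantile normalization can change it. The ratio of Sec61gamma to Sec61alpha RPKM was 0.758 to 1.10 in progenitors, 1.40 to 2.0 in EE, 1.21 to 1.94 in EC, 1.11 to 1.72 in Sox100B-RNAi and 0.899 to 1.19 in Sox100B-OE. Progenitors thus lay below EE, EC and Sox100B-RNAi in every library and overlapped Sox100B-OE. Sec61beta exceeded Sec61alpha 2.05- to 6.38-fold across all libraries, with overlapping ranges in the wild type cell types. These ratios were chosen after the values were seen and are given without a test.

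Hsc70-3 (X, 11801696 to 11807117, no shared exonic base), the Hsp70 of the ER and a target of the unfolded protein response, was at 138, 125, 137, 728 and 489 RPKM in progenitors. It was at 151, 155 and 235 in EE and at 182, 148 and 213 in EC. Progenitor replicates 4 and 5 were above every other wild type library, and progenitor replicates 1 to 3 were below them all. Neither EE nor EC differed from progenitors by a called amount, with log2 fold changes of -0.46 ± 0.59 and -0.44 ± 0.57 (adjusted p of 0.544 and 0.549, limma). EE and EC themselves differed by -0.02 ± 0.29 (adjusted p = 0.955). The sign against progenitors rested on which progenitors were used, since the log2 fold changes with replicates 1 to 3 alone were 0.40 for EE and 0.42 for EC, and with replicates 4 and 5 alone -1.75 and -1.73, subsets known to differ in Hsc70-3 and so given without a test.

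Gp93 (3R, 27948711 to 27952151) had the lowest mean of the 9 genes in every group. It shares 101 exonic bases, 3.56% of its exonic length, with CG4951 on the opposite strand. Its RPKM was 42.1, 47.4 and 50.6 in EE against 18.2, 22.0 and 18.1 in EC, and the values in progenitors, 34.0, 24.3, 10.7, 52.5 and 44.1, spanned both. EE exceeded EC by 1.22 ± 0.24 on the log2 scale (adjusted p = 0.00292, limma). This call was lost without EC replicate 1 or any EE replicate, at log2 fold changes of 1.17 to 1.30 and adjusted p of 0.0126 to 0.0258. Against progenitors, EE gave 0.66 ± 0.43 and EC -0.57 ± 0.43, and neither was called (adjusted p of 0.230 and 0.306).

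Calr (3R, 9628691 to 9630851, no shared exonic base) was at 1121, 1112 and 1359.8 RPKM in EE against 604, 810.2, 559, 733 and 749 in progenitors. Every EE library lay above every progenitor library, and Calr rose in EE by 0.80 ± 0.17 on the log2 scale, 1.74-fold (adjusted p = 0.00369, limma). The libraries labelled EC disagreed with each other, at 702, 289 and 2067 RPKM, and thus held both the lowest and the highest Calr value of all 17 libraries. EC accordingly differed from progenitors by 0.13 ± 0.49 and from EE by 0.67 ± 0.61 (EE higher), with adjusted p of 0.846 and 0.384. The rise in EE was kept under 11 of 20 alternatives. It was lost without progenitor replicate 1 (log2 fold change 0.75, adjusted p 0.0101) and without EE replicate 1, 2 or 3 (0.84, 0.85 and 0.71, adjusted p 0.0138, 0.0145 and 0.0245).

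The stress factor crc (2L, 21310866 to 21319527) shares 2515 exonic bases, 73.5% of its exonic length, with CG46314 on the same strand, which was not analysed here, so the reads of these overlapping genes cannot be told apart. Its RPKM was 334, 479.9, 479, 428 and 517 in progenitors, 257, 255 and 187 in EE, and 76.4, 82.1 and 128 in EC. The 3 cell types formed separate ranges, with progenitors highest and EC lowest. In EC crc fell by 2.24 ± 0.25 on the log2 scale against progenitors (adjusted p = 4.82e-04, limma), to 0.212 of their level. In EE it fell by 0.94 ± 0.19 against progenitors (adjusted p = 0.00281) and remained 1.30 ± 0.30 above EC (adjusted p = 0.00663). The fall in EC was called under 18 of 19 alternatives, among them each omission of a library. The fall in EE was called under 15 of 19 and was lost without EE replicate 2 (-1.01, adjusted p 0.0104) or EE replicate 3 (-0.79, adjusted p 0.0193). The difference of EE from EC was kept without EC replicate 3 and lost without each of the other 5 libraries, with log2 fold changes of 1.16 to 1.45 and adjusted p of 0.0164 to 0.0434.

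Xbp1 (2R, 21143545 to 21145750, no shared exonic base) was at 336, 346, 238, 511 and 542 RPKM in progenitors, 355, 329 and 378 in EE, and 199, 459 and 162 in EC. The ranges of the 3 cell types overlapped, and progenitor replicates 4 and 5 were again the highest of the wild type. No difference was called, with log2 fold changes of -0.09 ± 0.26 for EE and -0.62 ± 0.38 for EC against progenitors (adjusted p of 0.788 and 0.207, limma). The ratio of Xbp1 to crc, unchanged by a single scaling factor per library, was chosen after the values were seen. It was 0.496 to 1.19 in progenitors, 1.29 to 2.03 in EE and 1.27 to 5.59 in EC. Progenitors lay below both other cell types in this ratio.

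Counted together, calls among the 9 genes went in both directions in EE against progenitors, downward in EC against progenitors and upward in EE against EC. In EE against progenitors 1 of 9 was called higher and 1 lower, where 20.1% and 14.5% of the 8161 features tested were called in those directions, and 2 of 9 had groups that did not overlap, against 50.4% of all features. In EC against progenitors 0 were called higher and 3 lower, beside 3.56% and 16.5% of 7762 features, and 4 of 9 did not overlap, beside 39.4%. In EE against EC 4 of 9 were called higher and 0 lower, beside 26.5% and 6.22% of 7847 features, and 5 did not overlap, beside 59.9%. The median log2 fold change of the 9 genes was -0.03, -0.57 and 0.85 in these comparisons, and that of all tested features was -0.05, -0.46 and 0.45. The comparisons share libraries and are not independent.

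The deposited scaling bears on what was called with EC. After median-of-ratios scaling the crc fall in EC was -1.66 (adjusted p = 0.00199, limma), while Sec61alpha and Sec61beta were both at -0.65 and no longer called (adjusted p of 0.0850 and 0.0497). Under the same scaling none of the 4 calls of EE against EC remained, with log2 fold changes of 0.76 for Sec61beta, 0.54 for Sec61gamma, 0.65 for Gp93 and 0.71 for crc. The background turned with it, to 7.24% of features higher and 4.70% lower in EC against progenitors and 16.9% higher and 12.6% lower in EE against EC. The medians of the 9 genes and of all tested features were then both 0.00 in the former, and 0.27 and -0.03 in the latter. In EE against progenitors 21.1% were higher and 13.9% lower under this scaling, but 17.9% and 22.1% after quantile normalization and 17% and 20.8% when scaled to nuclear reads.

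**Figure D2:**
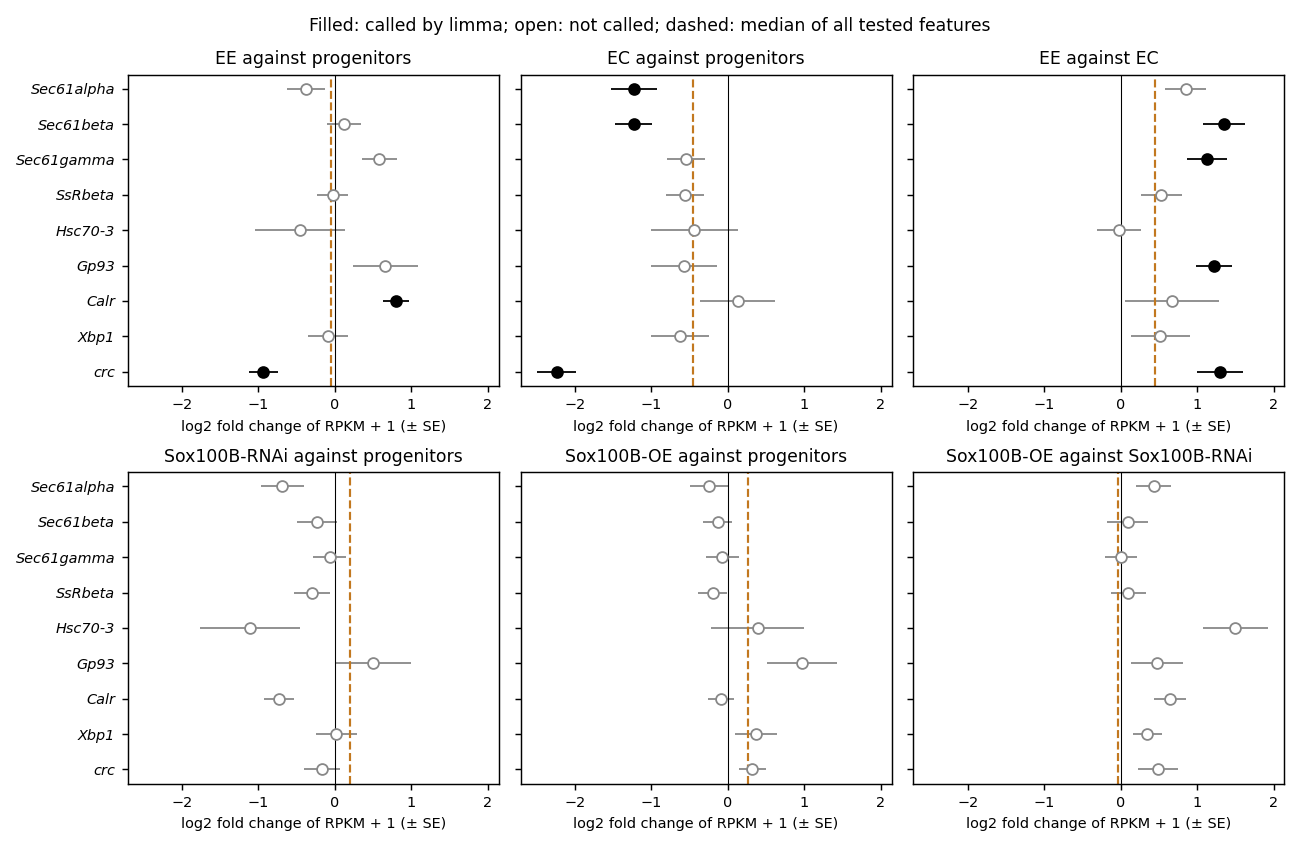
Log2 fold change of log2(RPKM + 1) with its limma standard error for the 9 genes in the 6 comparisons, with filled points for calls and the median of all tested features marked in each panel. The largest fall is crc in EC against progenitors (-2.24), and no point is filled in the 3 comparisons with Sox100B libraries.

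A wider ER list, which like the 9 genes was drawn up with results of these data known, held 56 further genes of the table. In EE against progenitors 9 of 53 tested genes (17%) were called higher and 2 (3.77%) lower, below the 20.1% and 14.5% of all features. Ero1L, the oxidase that recharges protein disulfide isomerases, had the largest rise, 2.27 ± 0.18 on the log2 scale (adjusted p = 7.65e-06, limma), from 7.37 to 11.7 RPKM in progenitors to 42.5, 50.3 and 51.3 in EE. The signal peptidase subunits twr and Spase22-23 rose by 1.59 ± 0.16 and 1.58 ± 0.17, and both share exonic bases with other genes. The signal recognition particle receptor subunit SrpRbeta fell by 0.83 ± 0.18 and the Sec61 partner Sec63, which shares exonic bases with another gene, by 0.79 ± 0.16. Among nuclear genes that share no exonic base, rescaled to their own total, 2 of 29 were called higher and 2 lower (6.90% each), beside 17.2% and 26.6% of all such features. Without each EE replicate in turn the count called higher was 5, and the count called lower was 0 without EE replicate 1 or 2, 1 without EE replicate 3 and 5 without progenitor replicate 3. Without EE replicate 1, 2 and 3 all features called higher went from 1640 to 927, 883 and 916. Those called lower went from 1183 to 675, 577 and 618, and to 1430 without progenitor replicate 3.

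In the libraries labelled EC, 0 of 52 tested genes of the wider list were called higher than in progenitors and 11 (21.2%) lower, beside 3.56% and 16.5% of all features. P58IPK, a DnaJ co-chaperone of BiP, fell by 2.36 ± 0.42 on the log2 scale (adjusted p = 0.00256, limma), from 26.3 to 85.7 RPKM in progenitors to 8.35, 5.38 and 12.1 in EC. Herp, a component of ER-associated degradation, fell by 2.13 ± 0.32, and the disulfide isomerase ERp60 by 1.70 ± 0.28. The exit group, which carries proteins from the ER to the Golgi, gave 4 of its 11 tested genes (36.4%) to this count, namely Sec24AB, Sec31, KdelR and bai. P58IPK, ERp60 and others, 8 of the 11, share exonic bases with other genes, and 4 of 29 nuclear genes that share none were called lower, beside 17.6% of all such features. The count of 11 became 3 after median-of-ratios scaling, 2 without EC replicate 1, 1 without EC replicate 2, 7 without progenitor replicate 5 and 6 without progenitor replicate 1, 2 or 4. All features called lower went from 1280 to 365 after that scaling and to 313 and 260 without EC replicate 1 and 2. Without progenitor replicate 5, 1, 2 and 4 they were 756, 724, 816 and 797.

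In EE against EC 17 of 52 (32.7%) were called higher and 0 lower, beside 26.5% and 6.22% of all features, with a median log2 fold change of 0.81 beside 0.45 for all tested features. Ero1L was 3.01 ± 0.27 higher on the log2 scale (adjusted p = 5.55e-05, limma), with 4.14, 4.27 and 7.28 RPKM in EC. Herp was 2.42 ± 0.28 higher and the oligosaccharyltransferase subunit Ostgamma 2.33 ± 0.31 higher. The stress group gave 7 of its 12 tested genes (58.3%), among them the ER membrane protein BI-1 (1.83 ± 0.26), the degradation factor Der-2 (2.03 ± 0.24) and the eIF2alpha phosphatase subunit PPP1R15 (1.34 ± 0.31). Thor, the fly 4E-BP, was not called, at 166, 181 and 160.1 RPKM in EE and 231, 698 and 238 in EC (adjusted p = 0.0819). Of the 17 genes 10, Ostgamma among them, share exonic bases with other genes, and 4 of 29 that share none were called higher, beside 20.7% of all such features. The count of 17 became 8, with 1 lower, after median-of-ratios scaling, 6 without EE replicate 1 or 2 and 7 without EE replicate 3. All features called higher went from 2080 to 1330 after that scaling and to 923, 779 and 866 without EE replicate 1, 2 and 3.

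**Figure D3:**
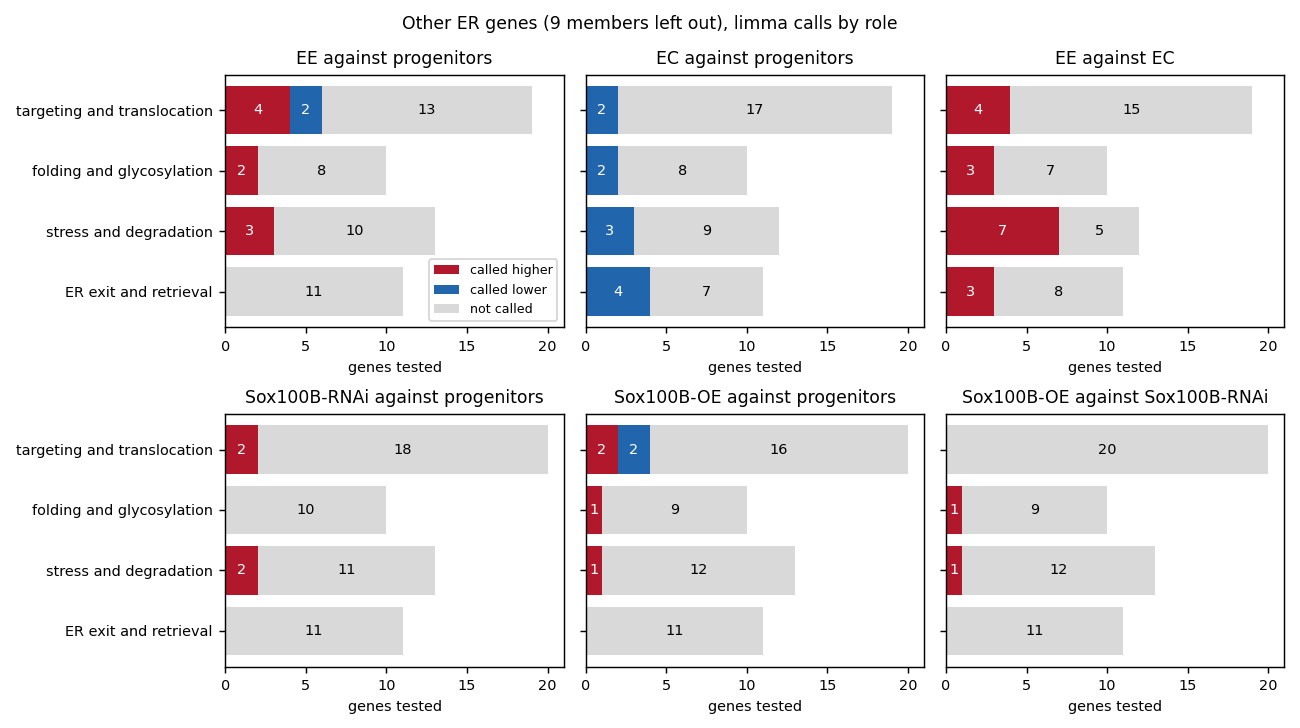
Number of genes called higher, called lower or not called by limma (stacked bars) in each of 6 comparisons, split into translocation, folding, stress and exit groups. Only those of the 56 further ER genes that passed the filter are shown, 52 to 54 per comparison. EE against EC has 17 genes higher and 0 lower, and EC against progenitors 0 higher and 11 lower.

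Sox100B-RNAi and the libraries labelled Sox100B-OE were each compared with the same 5 progenitor libraries and with each other. None of the 9 genes was called in any of these comparisons by limma, where 23.0% of 8675 features were called higher and 2.26% lower in Sox100B-RNAi against progenitors, 28.9% of 8918 higher and 4.83% lower in Sox100B-OE against progenitors, and 10.5% of 8848 higher and 5.56% lower in Sox100B-OE against Sox100B-RNAi. At an unadjusted p below 0.05 these comparisons passed 3653, 4698 and 3624 of all features. Among nuclear genes that share no exonic base, 2.90% were called higher and 0.989% lower in Sox100B-RNAi against progenitors. In Sox100B-OE those shares were 9.09% and 5.06% against progenitors and 10.5% and 8.62% against Sox100B-RNAi. Calr came nearest in Sox100B-RNAi, at 335, 433 and 483 RPKM, below every progenitor library, with a log2 fold change of -0.73 ± 0.20 and an adjusted p of 0.0163. It was the only 1 of the 9 whose groups did not overlap there, beside 35.3% of all features. Calr was called lower without progenitor replicate 3 (-0.80, adjusted p 0.00937) and after median-of-ratios scaling (-0.99, adjusted p 0.00109).

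Hsc70-3 was at 65.5, 215 and 101 RPKM in Sox100B-RNAi and at 224, 380.2 and 383 in the libraries labelled Sox100B-OE. The ranges did not overlap, and Sox100B-OE was 1.50 ± 0.42 higher on the log2 scale, with an adjusted p of 0.0276 by limma that missed the threshold. Both groups overlapped progenitors, against which the log2 fold changes were -1.11 ± 0.65 and 0.39 ± 0.61 (adjusted p of 0.235 and 0.636). Without Sox100B-RNAi replicate 2, the highest of its group, the difference of Sox100B-OE from Sox100B-RNAi was called (1.96, adjusted p 0.00329). With progenitor replicates 1 to 3 alone the log2 fold change of Sox100B-OE against progenitors was 1.25, and with replicates 4 and 5 alone it was -0.90.

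Calr was at 559, 712 and 668 RPKM in the libraries labelled Sox100B-OE, above Sox100B-RNAi in each. Xbp1 was at 548, 429 and 497 RPKM there and at 355, 404 and 393 in Sox100B-RNAi, again without overlap. Sec61alpha was at 120.0, 115 and 107 RPKM against 63.4, 103 and 91.0. These 3 differences were 0.64 ± 0.21, 0.35 ± 0.19 and 0.43 ± 0.23 on the log2 scale and were not called (adjusted p of 0.0543, 0.204 and 0.189, limma), and with Hsc70-3 they made 4 of 9 genes without overlap, beside 45.5% of all features.

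The other 5 genes overlapped between these groups. Sec61beta was at 257, 514 and 404 RPKM in Sox100B-RNAi and 384, 456 and 371 in Sox100B-OE. Sec61gamma was at 109, 115 and 124 against 116, 138 and 96.4, and SsRbeta at 74.0, 109 and 117 against 102, 120.3 and 96.5. For these 3 translocon genes the difference was at most 0.10 ± 0.23 on the log2 scale. Gp93 was at 25.5, 64.8 and 43.2 RPKM against 45.3, 57.1 and 75.5, and crc at 574, 332 and 319.6 against 624, 546 and 498. In Sox100B-OE against progenitors 0 of 9 genes had groups that did not overlap, beside 46.9% of all features.

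Of the wider list, 4 of 54 tested genes (7.41%) were called higher in Sox100B-RNAi than in progenitors and 0 lower, where 23.0% and 2.26% of all features were. In Sox100B-OE 4 (7.41%) were called higher and 2 (3.70%) lower, beside 28.9% and 4.83%. Among nuclear genes that share no exonic base, 1 of 29 (3.45%) was higher and 0 lower in Sox100B-RNAi, beside 2.90% and 0.989% of such features. In Sox100B-OE 1 of 29 was higher and 1 lower, beside 9.09% and 5.06%. The median log2 fold change of all such features was 0.02 in Sox100B-RNAi and -0.06 in Sox100B-OE. Spase12, a signal peptidase subunit, was listed at 0 in all 11 wild type libraries and averaged 96.3 and 116 RPKM in the Sox100B groups. It, Ire1 and Srp14 share exonic bases with other genes, as do 31.6% of annotated features, and they were called in both groups. Thor was at 603, 754 and 767 RPKM in Sox100B-RNAi against 146 to 417 in progenitors, a rise of 1.59 ± 0.30 on the log2 scale (adjusted p = 0.00216, limma). Ero1L was at 20.1, 24.6 and 28.2 RPKM in Sox100B-OE, 5.36, 9.26 and 9.70 in Sox100B-RNAi and 7.37 to 11.7 in progenitors. It was called higher in Sox100B-OE against both, by 1.30 ± 0.19 and 1.50 ± 0.26, and shares no exonic base. The summed enteroendocrine markers were at 8036 to 13514 RPKM in Sox100B-OE, 2434 to 4859 in Sox100B-RNAi and 5507 to 8846 in progenitors. Between the Sox100B groups NPF moved with the sum, at 6598 to 10918 RPKM in Sox100B-OE and 74.3 to 1609 in Sox100B-RNAi, as did Tk and pros. AstA, CCHa1 and CCHa2 went the other way, at 15.7 to 32.3, 7.72 to 27.4 and 31.4 to 96.5 RPKM in Sox100B-OE. In Sox100B-RNAi they were at 372 to 438, 287 to 371 and 417 to 1154, while AstC and Dh31 overlapped. The part of these markers in the Ero1L values was not tested. Beside Ero1L, Edem1, which takes part in degradation of misfolded glycoproteins, was the other gene of the wider list called between the Sox100B groups. Its mean was 2.16 RPKM in Sox100B-OE against 0.556 in Sox100B-RNAi. Neither Ero1L nor Edem1 was called between the Sox100B groups without Sox100B-OE replicate 2 or 3, where the count was 0, and the count was 1 without Sox100B-OE replicate 1. Most of the list lay below progenitors as deposited, with 16 of 54 log2 fold changes above 0 in Sox100B-RNAi and 21 of 54 in Sox100B-OE, and medians of -0.14 and -0.12 beside 0.20 and 0.26 for all features. After median-of-ratios scaling the counts called lower than in progenitors were 6 in Sox100B-RNAi and 8 in Sox100B-OE, while all features were 20% higher and 4.36% lower and 24.6% higher and 10.5% lower. After quantile normalization all features were 15.6% higher and 18.8% lower and 18.8% higher and 28.9% lower. The list then had 12 of 54 genes (22.2%) called lower in Sox100B-RNAi and 13 of 54 (24.1%) in Sox100B-OE, with 4 (7.41%) higher in each. The count called higher in Sox100B-RNAi was 2 without Sox100B-RNAi replicate 2 or 3, and the count called lower in Sox100B-OE was 0 without Sox100B-OE replicate 1 or 3, 1 without Sox100B-OE replicate 2 or progenitor replicate 2 or 4, and 5 without progenitor replicate 3. Leaving out each library, all features called against progenitors ranged over 579 to 1927 higher in Sox100B-RNAi and 129 to 600 lower in Sox100B-OE. Between the Sox100B groups 316 to 883 were higher.

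Progenitor replicates 4 and 5 differed from replicates 1 to 3 in several ER genes, and no label marks such a division. Beside Hsc70-3, KdelR, the receptor that returns ER proteins from the Golgi, was at 428 and 452 RPKM in them and at 209, 276 and 181 in replicates 1 to 3. P58IPK was at 85.7 and 77.7 against 30.6, 39.4 and 26.3. Gp93 and Xbp1 were also highest in these libraries among progenitors, whereas Sec61alpha and Sec61gamma were highest in replicates 1 and 2. The same libraries had the highest Sox100B, 174 and 183 RPKM against 69.7 to 97.9, and the lowest sums of enterocyte markers, 118 and 123 RPKM against 456 to 541. Of these markers Myo31DF went the other way, at 94.8 and 103 RPKM against 49.7 to 72.1, and nub and Npc1b overlapped. The part of Sox100B or of the markers in the Hsc70-3 values was not tested. Manf was also highest in replicates 4 and 5 among progenitors, and KdelR, P58IPK and Manf were chosen here after their values were seen. Other genes of the list were lowest in replicates 4 and 5. Among them were Edem1, at 0.382 and 0.367 RPKM against 1.78 to 2.14, and Edem2, at 5.36 and 5.62 against 6.32 to 8.22. The share of all features that divided progenitors in this way was not counted.

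**Figure D4:**
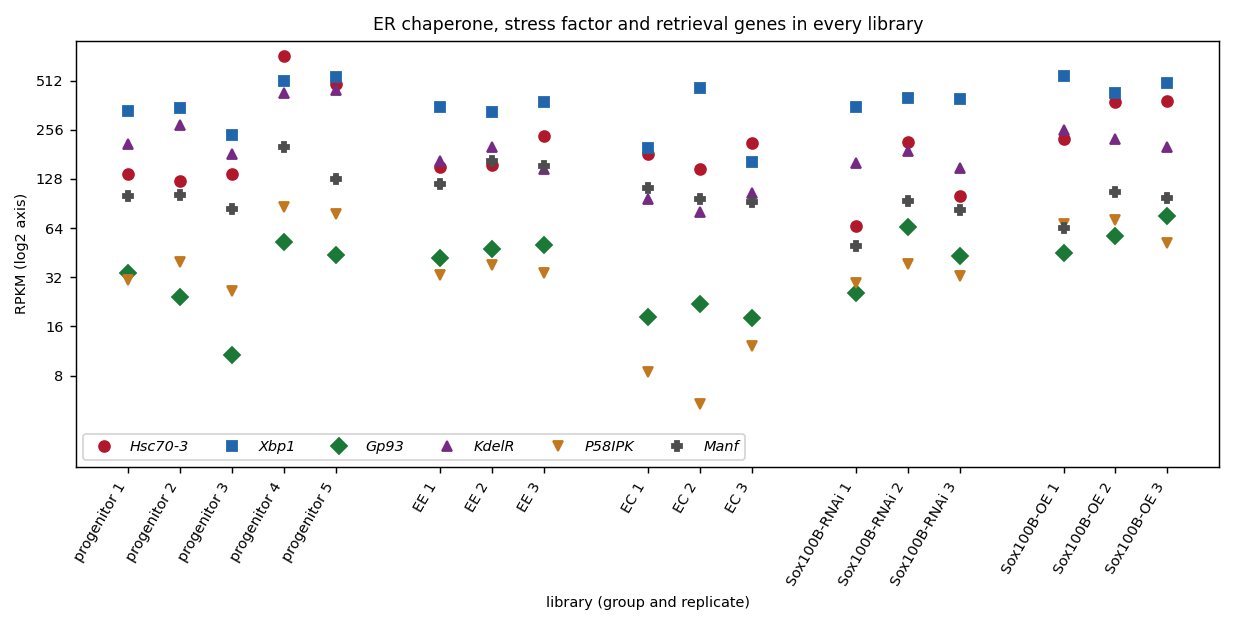
RPKM (log2 axis) of Hsc70-3, Xbp1, Gp93, KdelR, P58IPK and Manf in each of the 17 libraries, by group and replicate. All 6 genes are highest among progenitors in replicates 4 and 5, and P58IPK reaches its lowest value, 5.38 RPKM, in EC replicate 2. KdelR, P58IPK and Manf were chosen after their values were seen, and other ER genes went the other way.

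Over the 11 wild type libraries, the features with the profile nearest to that of Hsc70-3 were not ER genes of the list. By root mean square difference of centred log2 values, the nearest of 8395 features were Ddr (0.32), cactin, CG8908, Ncc69 and CG6959 (each 0.36). They were low in level, with Ddr at 0.461 to 3.16 RPKM and cactin at 1.73 to 12.5 in progenitors. The nearest genes of the wider ER list were Sil1, a nucleotide exchange factor of BiP, at rank 105 (0.54) and Manf, a secreted ER stress protein, at rank 265 (0.60). KdelR stood at rank 907 and P58IPK at rank 4630. These likenesses are a description over libraries that include the 2 high progenitor replicates, and they carry no test.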

How the data were processed

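RNA sequencing of 17 libraries of sorted midgut cells was analysed from the table of RPKM values that the authors deposited, with 1 column per library and 17490 features. The submitters' processing notes name STAR, featureCounts 1.6.3, DESeq2 and the genome build BDGP6. The read total behind the deposited RPKM values is not given in the sources used here. Low RPKM times exonic length fell on whole multiples of a step (within 0.05 for 98.2 to 98.5% of values), which gave implied read totals, used to describe depth only. The RNA was amplified and carried no molecular identifiers, so read numbers speak to counting error only.

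Members were matched by FlyBase identifier, with positions from the Ensembl annotation of BDGP6. The members, the gene lists, the tests and the alternatives were chosen with earlier results of these data known. Groups came from sample titles. The wider list had 70 symbols, of which 65 were in the table, the 9 members included. Symbols with no match were not analysed here, and 1 feature with missing values was dropped. No sequence is shown.

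Each comparison was fitted with limma 3.58.1 in R 4.3.3 (lmFit, eBayes with trend, 2-sided, Benjamini-Hochberg over all features tested) on log2(RPKM + 1), using the libraries of its groups. Features were kept when 3 or more of those libraries reached an RPKM of 1. Calls required an adjusted p under 0.01 together with a change of over 0.5 on the log2 scale in either direction. Both thresholds were taken from a published study of fly enteroendocrine cells. There they were applied with DESeq2 to read counts, not to limma fits of RPKM. Fold changes are on the log2(RPKM + 1) scale, which understates changes of low genes, and their errors are limma standard errors. The procedure was tested on simulated data, but the settings and outcome are not given here and no call rests on them. Named genes were the members, up to 3 genes per direction and comparison from the wider list (called, groups not overlapping, largest change) and the 5 features nearest in profile to Hsc70-3. The other genes of the wider list given with values were named after their values were seen.

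The alternatives changed the pseudocount (to 0.1), the filter (none, or an RPKM of 3.5), the scaling (median of ratios, or quantiles), the fit (all 17 libraries together, or replicate as a block), the features (only nuclear genes that share no exonic base rescaled to their own total), the threshold (0.05) or the libraries (progenitor replicates 1 to 3 or 4 and 5 alone, or each library left out). Scaling to nuclear reads was added after the data were seen.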

Additional observations from a re-analysis of the deposited data

How the results depend on the processing

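Replicate numbers recur across groups, but deviations of same-numbered libraries correlated at -0.14 to 0.36 and not above 0.1 for every number in any comparison, so the numbers were not taken to pair libraries. Only in Sox100B-OE against Sox100B-RNAi were they positive for every number (0.36, 0.04 and 0.18), and pairing there is not excluded. With the replicate block, members called became 0 higher and 0 lower in EE against progenitors, 0 lower in EC against progenitors, 1 higher in EE against EC, 1 higher in Sox100B-OE against progenitors and 1 higher in Sox100B-OE against Sox100B-RNAi, and the block fits against progenitors used only numbers 1 to 3 of the progenitors. The crc fall in EC was -2.18 there (adjusted p = 0.0103, limma), its only loss.

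Under other settings the member calls (1 higher and 1 lower in EE against progenitors, 3 lower in EC against progenitors, 4 higher in EE against EC) changed as follows. Higher calls in EE against progenitors became 0 with no filter, in 1 fit of all libraries, with nuclear genes sharing no exonic base and scaled to nuclear reads. Lower calls there became 0 with nuclear genes sharing no exonic base, which leaves crc out, and 0 with progenitor replicates 1 to 3. Progenitor replicates 1 to 3, alone or in the replicate block, and 4 and 5 are subsets known to differ in Hsc70-3. A call of Hsc70-3 with them is therefore no test, and its calls with replicates 4 and 5 are left out here. With replicates 4 and 5 the fall of crc in EE stayed called. Lower calls in EC became 1 with median-of-ratios scaling and with progenitor replicates 1 to 3. They became 2 with no filter or quantile normalization, where Sec61alpha was lost (adjusted p of 0.0211 and 0.0164, limma). With nuclear genes sharing no exonic base, which leaves crc out, they became 2. With progenitor replicates 4 and 5 crc stayed called in EC, and Sec61alpha and Sec61beta were lost (adjusted p of 0.0458 and 0.0124, limma). Higher calls in EE against EC became 1 with no filter, 0 with median-of-ratios scaling, quantile normalization or nuclear genes sharing no exonic base, which leaves out Gp93 and crc, 2 scaled to nuclear reads, 3 in 1 fit of all libraries, where Gp93 was lost (adjusted p = 0.0327), and 5 at a threshold of 0.05. In Sox100B-RNAi 1 member was lower with median-of-ratios scaling, at a threshold of 0.05 or scaled to nuclear reads, and 2 with quantile normalization. In Sox100B-OE 1 was higher with progenitor replicates 1 to 3, as with the replicate block. Those progenitors are a subset known to differ in Hsc70-3, so a call of that gene there is no test. Against Sox100B-RNAi 1 member was higher in Sox100B-OE at a threshold of 0.05. Leaving out each library gave 0 to 1 higher and 0 to 1 lower in EE against progenitors, 1 to 3 lower in EC, 0 to 4 higher in EE against EC, 0 to 1 lower in Sox100B-RNAi and 0 to 1 higher in Sox100B-OE against Sox100B-RNAi. All features called ranged over 883 to 1661 higher and 577 to 1430 lower in EE against progenitors and 260 to 1438 lower in EC. They ranged over 779 to 2695 higher in EE against EC, 46 to 222 lower in Sox100B-RNAi and 316 to 883 higher between the Sox100B groups. Beyond the settings whose construction is named, the cause was not tested.

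No call changed sign, but uncalled log2 fold changes did. Median-of-ratios scaling gave SsRbeta 0.01 in EE against progenitors, Sec61gamma 0.03, SsRbeta 0.02 and Hsc70-3 0.14 in EC against progenitors, SsRbeta -0.06 and Xbp1 -0.07 in EE against EC, Xbp1 -0.24 in Sox100B-RNAi against progenitors and Sec61gamma 0.03 in Sox100B-OE against Sox100B-RNAi. Nuclear genes sharing no exonic base gave Sec61beta -0.25 in EE against progenitors, and Sec61beta -0.04 and SsRbeta -0.03 between the Sox100B groups. Scaling to nuclear reads gave Sec61beta -0.12 in EE against progenitors and -0.01 between the Sox100B groups, and Xbp1 -0.13 in Sox100B-RNAi. Quantile normalization gave Sec61beta -0.28 in EE and Calr -0.25 in EC against progenitors, and Xbp1 -0.34 in Sox100B-RNAi. Progenitor replicates 1 to 3, as also the replicate block, gave Hsc70-3 0.40 and Xbp1 0.23 in EE and Hsc70-3 0.42 in EC. Progenitor replicates 4 and 5 gave Sec61beta -0.07 and Gp93 -0.05 in EE, Sec61gamma 0.18, Gp93 -0.21 and Xbp1 -0.46 in Sox100B-RNAi, and Sec61gamma 0.17, Hsc70-3 -0.90 and Xbp1 -0.11 in Sox100B-OE. Leaving out each library, the values against progenitors spanned 0 for Calr (-0.60 to 0.81 in EC, -0.16 to 0.01 in Sox100B-OE), Sec61beta (-0.07 to 0.26 in EE, -0.45 to 0.05 in Sox100B-RNAi), Sec61gamma (-0.20 to 0.06 in Sox100B-OE, -0.13 to 0.06 in Sox100B-RNAi), SsRbeta (-0.14 to 0.09 in EE) and Xbp1 (-0.26 to 0.04 in EE, -0.14 to 0.15 in Sox100B-RNAi). They also did in EE against EC for Calr (-0.02 to 1.40) and Hsc70-3 (-0.23 to 0.10), and between the Sox100B groups for Sec61beta (-0.18 to 0.32), Sec61gamma (-0.13 to 0.13) and SsRbeta (-0.10 to 0.23).

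With 3 to 5 libraries a group, the spread between libraries limits these comparisons more than depth.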
